A study of Drosophila melanogaster with 42 samples.

Results

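The ring gland of Drosophila melanogaster was compared with the whole larva at a single age, 24 h into the third instar, which is the last larval stage. The comparison rests on 6 of the 42 arrays of the series, 3 of dissected ring glands and 3 of whole larvae, chosen by their source labels and not by any measured value. All 6 came from w1118 larvae, labelled wild-type with a normal phenotype, which had been kept in darkness at 25 °C, fed with yeast paste, and carried no driver or transgene. The same tissues from w1118 larvae at 4, 8 and 36 h, 6 arrays at each time, were used to see where the 24 h difference stood among the others. The remaining 18 arrays, of crosses with a phantom-Gal4 driver, were not used here. The labels call the replicates biological but do not say how many glands or larvae were pooled or whether cultures were separate. The p-values therefore measure the spread between replicate samples, taken over all 4 times, and that spread may be technical.

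The ring gland is a small composite endocrine organ that lies over the larval brain. Its prothoracic gland takes up sterol and converts it to ecdysone through a chain of oxidising enzymes, its corpora allata make juvenile hormone from products of the mevalonate pathway, and its corpora cardiaca release adipokinetic hormone. During the third instar the gland moves from low hormone output to the large ecdysone peak that starts metamorphosis. A whole larva contains its own ring gland, diluted in fat body, muscle, gut, epidermis, salivary glands and other tissues, so each difference below sets the gland against a mixture.

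RNA was hybridised to one-colour Cy3 NimbleGen arrays, and each value is an RMA intensity, a summary over the probes of a transcript on a linear scale. A difference is the mean log2 intensity in ring gland minus that in whole larva, so 1 on this scale is a doubling. Intensities of different transcripts depend on their probes and were not set against each other. A transcript was called higher or lower when limma gave an adjusted p under 0.05, 2-sided, with Benjamini-Hochberg adjustment over all 16637 transcripts, in a fit to the 24 wild-type arrays. Each standard error draws on the replicate spread of all 24 arrays, so it can be wide where the arrays at 24 h agree closely. In such bulk RNA, fewer cells of a type and less RNA per cell cannot be told apart.

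The table identifies transcripts by FlyBase number only. A reference gene table paired 44 of the 16637 numbers with gene symbols, 16 with 1 gene and 28 with several genes that share a transcript, and the others are given by number. Of 20 lists of tissue markers and pathways, 5 held a named member. None of those 5 was a marker list for ecdysone synthesis, corpora allata, corpora cardiaca, fat body, salivary gland, midgut, cuticle, muscle, neurons, glia, blood or trachea, so the tissue labels could not be checked against defining markers.

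At 24 h the 2 tissues separated clearly, and 1 array stood apart from its group. Ring gland arrays at 24 h correlated with one another at r between 0.986 and 0.991 across transcripts, whole larva arrays at 0.976 to 0.992, and arrays of different tissue at 0.845 to 0.880. Replicate 1 of whole larva lay more than 2-fold below both other replicates for 865 transcripts and more than 2-fold above both for 126. The other 5 arrays at 24 h lay that far out for 30 to 231 transcripts in either direction. Of the 865 transcripts, 784 (90.6%) rose in whole larva between 8 and 36 h, against 24.1% of all transcripts. This array correlated with the mean of whole larva at 8 h at r = 0.978 and with that at 36 h at r = 0.951, whereas replicates 2 and 3 correlated better with the 36 h mean (0.981 and 0.982) than with the 8 h mean (0.972 and 0.966). The part of this array in the results was not tested beyond repeating them without it. In ring gland, replicate 2 lay more than 2-fold above both others for 231 transcripts, of which 206 (89.2%) were called lower in ring gland at 36 h, against 24.4% of all transcripts. At 36 h, whole larva replicates 2 and 3 agreed at r = 0.999, against 0.974 to 0.996 for the 23 other replicate pairs of the 24 arrays, and were kept as 2 samples. Whole larva replicate 1 at 36 h lay more than 2-fold above both of them for 1516 transcripts and below both for 252. It correlated with them at r = 0.974 and 0.975, and it is part of every 36 h result unless said otherwise. Array minima at 24 h lay between 8.74 and 9.51, and no detection flag was used here, so a fold against a dim intensity is limited by the background of the array.

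**Figure D1:**
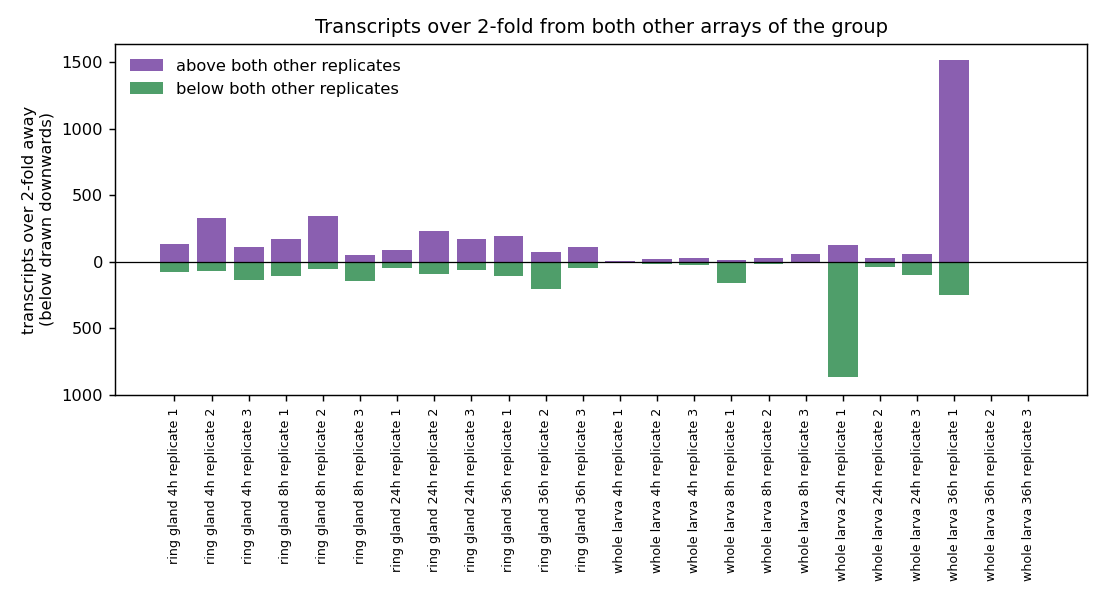
Number of transcripts on each of the 24 wild-type arrays that lie more than 2-fold above (drawn upwards) or below (drawn downwards) both other arrays of the same tissue and time. Whole larva replicate 1 at 24 h has 865 below, and whole larva replicate 1 at 36 h has 1516 above.

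Most transcripts differed between the tissues at 24 h. Of 16637, 7670 (46.1%) were called higher in ring gland and 3860 (23.2%) lower, together 69.3%. The higher calls were mostly small. Below 1.5-fold there were 2153 higher and 300 lower calls, and between 1.5-fold and 2-fold 2422 and 599. At 2-fold or more the sides were nearly even, with 3095 higher (18.6%) and 2961 lower (17.8%). Beyond 4-fold the lower side was the longer, with 556 higher and 1735 lower, and beyond 16-fold it held 435 transcripts against 72. At 64-fold or more 10 were higher and 103 lower, and at 256-fold or more 0 and 20.

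**Figure D2:**
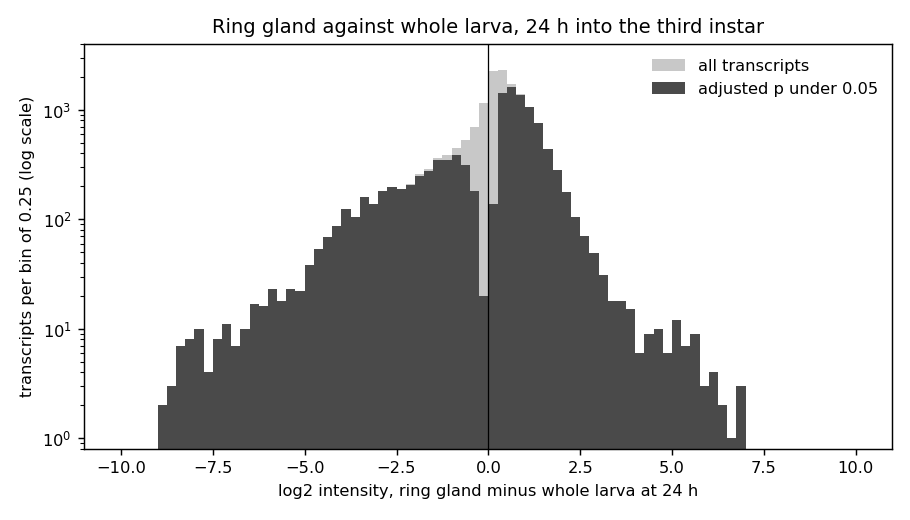
Histogram of the 24 h difference (log2 intensity, ring gland minus whole larva) for all 16637 transcripts, in bins of 0.25, with the number per bin on a log axis. Dark bars are transcripts at an adjusted p under 0.05. The peak lies to the right of 0 and the left tail is heavier and reaches -8.88.

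The distribution was lopsided in the same way. Its median was 0.27 higher in ring gland, the central portion from the 25th to the 75th percentile ran from -0.44 to 0.80, the 1st percentile lay at -5.26 and the 99th at 2.93. The excess of higher calls depended on the scale chosen between arrays. When the median deviation of each array from the mean array was subtracted, the overall median moved from 0.27 to -0.02. Then 5360 transcripts were called higher and 5151 lower, and the share of higher among the calls went from 66.5% to 51.0%. Such centring moves the median difference towards 0 by construction, so it cannot show which scale is right, and this was not tested. The long lower tail was present on either scale, with 2035 lower and 356 higher calls beyond 4-fold after centring. Without whole larva replicate 1, 1912 lower and 632 higher calls lay beyond 4-fold.

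The largest differences belonged to transcripts that the reference table does not name. FBtr0113450 had intensities of 3979, 3667 and 3973 in the 3 ring gland arrays and 35.8, 26.4 and 35.4 in the 3 whole larva arrays. It was 120-fold higher in ring gland, a log2 difference of 6.91 ± 0.16 (SE, limma adjusted p = 7.6e-17). FBtr0088009 had intensities of 9910, 8837 and 9164 in ring gland and 78.0, 73.4 and 87.1 in whole larva. The 117-fold difference (6.87 ± 0.19) was as steady as that of FBtr0113450, and no ring gland array of either came near a whole larva array. Both stood at a similar difference at every other time, from 6.87 to 7.19 for FBtr0113450 and from 7.24 to 7.41 for FBtr0088009.

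On the lower side, FBtr0075443 had intensities of 15.3, 14.9 and 12.0 in ring gland and 6596, 6006 and 7210 in whole larva. It was 471-fold lower in ring gland, a log2 difference of -8.88 ± 0.13 (SE, limma adjusted p = 3.85e-19). FBtr0076608 had 55.1, 51.9 and 48.6 in ring gland and 26704, 26333 and 19064 in whole larva, 459-fold lower. The ring gland intensities of FBtr0075443 lay close to the array minima, so its fold depends on how the background was set, while those of FBtr0076608 lay several times above them.

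**Figure D3:**
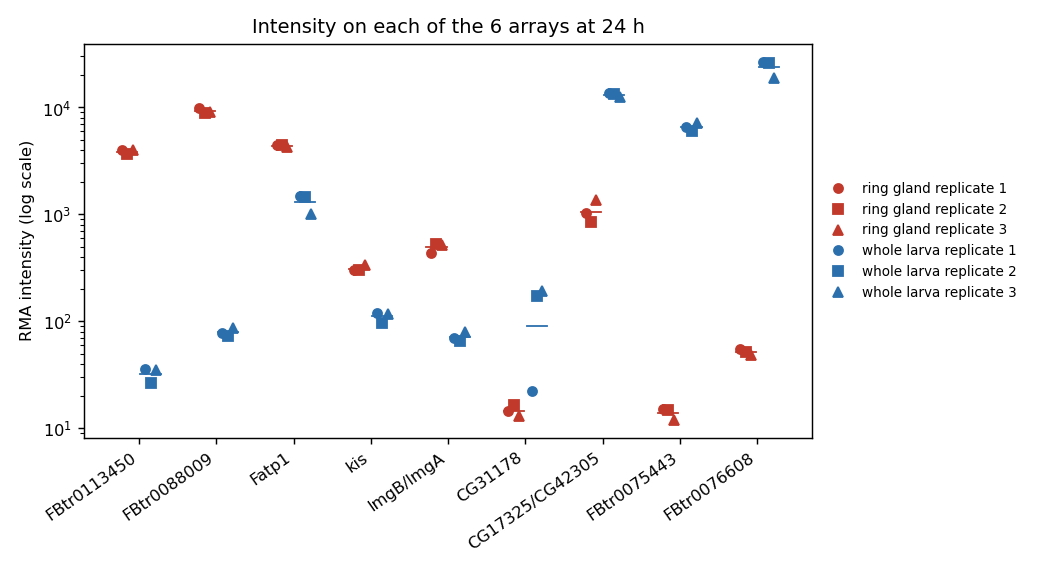
RMA intensity (log axis) on each of the 6 arrays at 24 h for 9 transcripts, with ring gland in red, whole larva in blue, a marker shape for each replicate and a short line at the group mean. The tissues do not overlap for any of the 9, and CG31178 is 22.3 on whole larva replicate 1 against 172 and 193 on the other whole larva arrays.

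The 16 transcripts of 1 gene were described whatever their values. Of these, 11 were called higher in ring gland at 24 h, 3 lower and 2 neither way, beside 46.1% higher and 23.2% lower among all transcripts. Their median difference was 0.56, against 0.27 over all transcripts. For 11 of the 16 every ring gland array lay above every whole larva array, and for 4 every one lay below, beside 49.1% and 23% of all transcripts. Centring the arrays left 8 higher calls and gave 5 lower ones: the calls of HDAC3, LanA and His4r were lost, and rdx (-0.28) and alpha-Spec (-0.49) became lower calls. Of all 16637 transcripts, 5360 were higher and 5151 lower with arrays centred.

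Lipid handling was represented by Fatp1 (FBtr0080133), a fatty acid transport protein that moves long-chain fatty acids into cells. Its intensities were 4461, 4490 and 4232 in ring gland and 1488, 1449 and 1006 in whole larva. All 3 gland arrays lay far above the larval ones, a 3.39-fold difference (log2 1.76 ± 0.17, SE, limma adjusted p = 5.8e-08), and this was the largest positive difference among the 16. It was the sole named member of the 13 genes listed for sterol and lipid uptake. Mvk, mevalonate kinase, acts early in the pathway whose products include juvenile hormone in insects, and shares its transcript (FBtr0091651) with CG33672. That transcript read 2606, 2157 and 2210 in ring gland and 1192, 1315 and 1031 in whole larva. The groups did not overlap, and the difference was 0.98 ± 0.15 (SE, limma adjusted p = 1.4e-05), or 1.97-fold.

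The list of chromatin genes had 4 named members of 9. These 4, kis, SuUR, HDAC3 and His4r, were called higher, with a median difference of 0.78 beside 46.1% called higher and a median of 0.27 for all transcripts, and with arrays centred kis and SuUR were still called and the other two were not. The kismet transcript kis (FBtr0078144), for a chromodomain helicase of the trithorax group, read 302, 300 and 336 in ring gland and 121, 97.4 and 117 in whole larva. That was 2.80-fold, a log2 difference of 1.49 ± 0.21 (SE, limma adjusted p = 6.5e-06), with a wide gap between the tissues. SuUR (FBtr0076203) encodes a protein that slows replication forks in the polytene chromosomes of larval tissues. Its intensities were 366, 420 and 332 in ring gland against 177, 127 and 204.9 in whole larva, and the difference was 1.16 ± 0.17 (SE, limma adjusted p = 6.7e-06), again without overlap.

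The other members of the chromatin list moved less. HDAC3 (FBtr0078767), a histone deacetylase, read 3264, 3622 and 3679 in ring gland and 2285, 2956 and 2801 in whole larva, a difference of 0.40 ± 0.09 (SE, limma adjusted p = 0.00076). His4r (FBtr0082962), a polyadenylated replacement histone H4 gene, read 23210, 21756 and 23374 in ring gland and 19063, 18959 and 20101 in whole larva. Its difference of 0.23 ± 0.09 (SE, limma adjusted p = 0.024) was below the median of all transcripts, was -0.05 with arrays centred, and lost its call when any of 4 of the 6 arrays was left out (ring gland replicates 1 and 3, whole larva replicates 1 and 2; adjusted p from 0.059 to 0.070).

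The list of amino acid sensing and TOR genes had 2 named members of 11, mio and Wdr24. Both encode subunits of GATOR2, a complex that counters GATOR1, an inhibitor of the growth kinase TOR when amino acids are scarce. Both were called higher, with a median of 0.75, where 46.1% of all transcripts were called higher with an overall median of 0.27. For mio (FBtr0077835) the intensities were 305, 252 and 335 in ring gland and 205.3, 175 and 163 in whole larva, a difference of 0.71 ± 0.15 (SE, limma adjusted p = 0.00031). For Wdr24 (FBtr0085543) they were 673, 827 and 780 against 361, 484 and 481, a difference of 0.79 ± 0.18 (SE, limma adjusted p = 0.00059). In each case the lowest gland array exceeded the highest larval array.

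The ubiquitin system had 2 named members of 5, of which 1 was called higher, beside 46.1% of all transcripts. Uba1 (FBtr0088499), the E1 enzyme that charges ubiquitin for all later steps, read 5569, 5462 and 4879 in ring gland and 3008, 3221 and 3004 in whole larva. It was 1.72-fold higher in ring gland, at 0.78 ± 0.11 (SE, limma adjusted p = 6.4e-06), with little spread on either side. The roadkill transcript rdx (FBtr0082871), an adaptor that brings Cubitus interruptus to a Cul3 ligase, read 4770, 4740 and 4202 in ring gland and 4324, 4929 and 4446 in whole larva. The groups overlapped, and the difference was 0.00 ± 0.09 (SE, limma adjusted p = 0.99).

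Growth and structure were represented by several single transcripts. The slender lobes transcript sle (FBtr0082231), for a nucleolar protein, read 1463, 1308 and 1284 in ring gland and 596, 575 and 696 in whole larva, 2.18-fold higher (1.12 ± 0.12, SE, limma adjusted p = 1.35e-07). LanA (FBtr0077014), a laminin chain of basement membranes and the sole named member of 7 listed for them, read 7506, 7197 and 8103 in ring gland against 5953, 6041 and 6183 in whole larva. That difference was 0.33 ± 0.09 (SE, limma adjusted p = 0.0044), close to the median of all transcripts. CG16974 (FBtr0080489) read 1716, 1701 and 1153 in ring gland, with replicate 3 the lowest, and 895, 849 and 827 in whole larva, a difference of 0.81 ± 0.17 (SE, limma adjusted p = 0.00047). The membrane skeleton gene alpha-Spec (FBtr0072789), which encodes alpha-spectrin, read 686, 680 and 680 in ring gland against 759, 742 and 871 in whole larva. No array of the tissues overlapped for alpha-Spec, yet its difference of -0.21 ± 0.16 (SE, limma adjusted p = 0.23) was not called.

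The 3 lower calls among the 16 were CG31178, fend and NaPi-III. CG31178 (FBtr0084138) read 14.5, 16.4 and 13.1 in ring gland, near the array minima, and 22.3, 172 and 193 in whole larva. Its difference of -2.63 ± 0.62 (SE, limma adjusted p = 0.00094) mixed 1 low and 2 higher larval arrays, and without whole larva replicate 1 it was -3.64. The fend transcript (FBtr0071349) read 957, 981 and 820 in ring gland and 1426, 1730 and 1964 in whole larva, 1.85-fold lower in ring gland (-0.88 ± 0.23, SE, limma adjusted p = 0.0025). NaPi-III (FBtr0076213), a sodium-phosphate cotransporter, read 880, 956 and 797 in ring gland and 1094, 1316 and 1270 in whole larva. The tissues did not overlap, but the difference was small (-0.48 ± 0.20, SE, limma adjusted p = 0.039) and lost its call without ring gland replicate 1 or 3 or whole larva replicate 2 or 3 (adjusted p from 0.072 to 0.12).

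**Figure D4:**
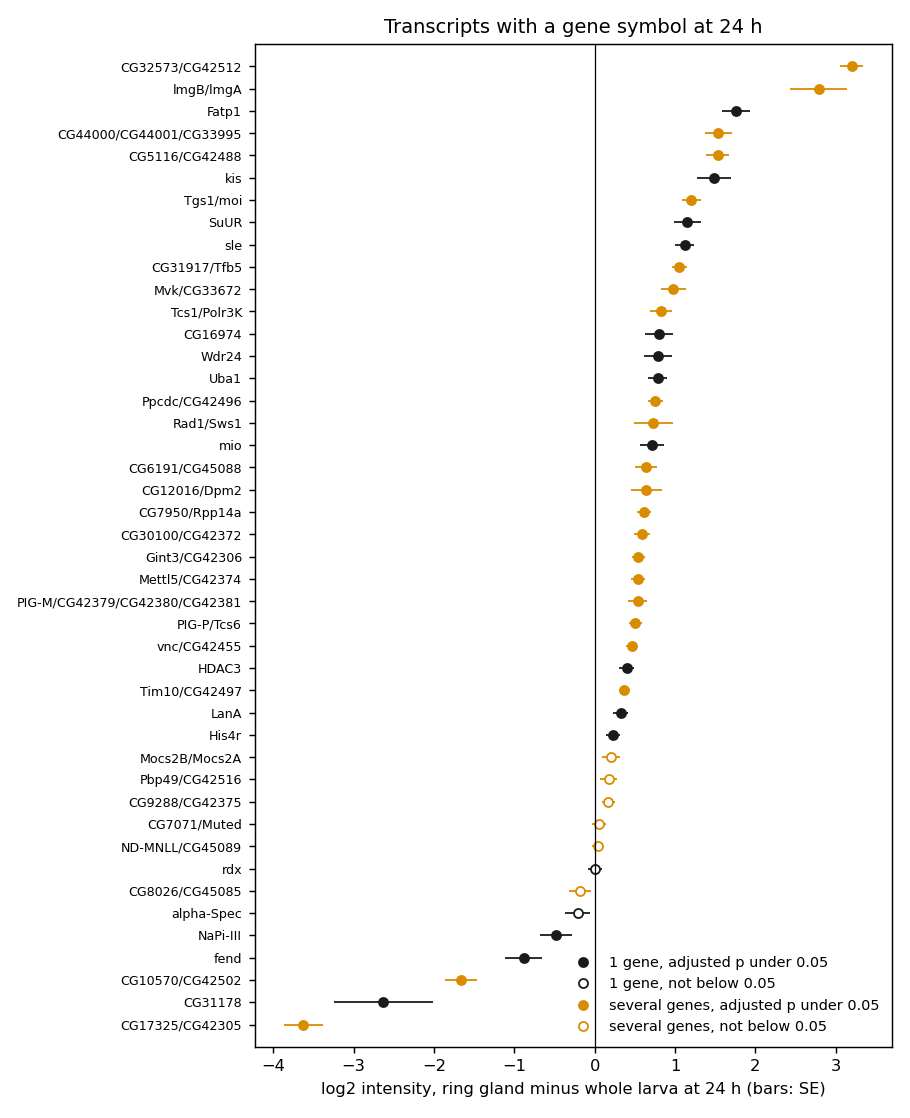
The 24 h difference (log2 intensity, ring gland minus whole larva) for the 44 transcripts that have a gene symbol, ordered by size, with bars of 1 SE. Filled points are at an adjusted p under 0.05, black for transcripts of 1 gene and orange for transcripts of several genes. Most lie between 0 and 2, with CG32573/CG42512 highest at 3.20 and CG17325/CG42305 lowest at -3.63.

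The other 28 named transcripts each belong to several genes, and 27 of them carry both a main reading frame and an upstream one. A probe reads the transcript, so a difference cannot be assigned to either frame or its protein. Of these 28, 20 were called higher in ring gland, 2 lower and 6 neither way, again beside 46.1% and 23.2% of all transcripts, and their median was 0.57. Centring the arrays left 17 higher calls and gave 5 lower ones, beside 5360 higher and 5151 lower of all 16637 transcripts with arrays centred.

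The strongest of them had large folds. The transcript of CG32573 and CG42512 (FBtr0074315) read 827, 874 and 844 in ring gland and 102, 76.2 and 101 in whole larva, 9.19-fold higher (3.20 ± 0.15, SE, limma adjusted p = 2e-12). The lemming transcript of lmgB and lmgA (FBtr0079695), the second of which encodes the RING subunit of the anaphase-promoting complex, read 436, 528 and 523 in ring gland and 69.7, 66.0 and 78.9 in whole larva. It was 6.92-fold higher, at 2.79 ± 0.36 (SE, limma adjusted p = 1.5e-06). The transcript of CG5116 and CG42488 (FBtr0084877) was the most even, at 2776, 2751 and 2722 in ring gland and 973, 933 and 944 in whole larva, a difference of 1.53 ± 0.14 (SE, limma adjusted p = 2.7e-08). All 3 showed a wide gap between the lowest gland array and the highest larval array.

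The next 6 of the 28 are given by the role of a gene they carry, without a list behind the grouping. The transcript of Tgs1, which methylates the cap of small nuclear RNAs, and moi, a telomere capping protein, was higher by 1.20 ± 0.12 (SE). That of Tfb5, a subunit of the transcription and repair factor TFIIH, and CG31917 was higher by 1.05 ± 0.09, and that of Polr3K, a subunit of RNA polymerase III, and Tcs1 by 0.83 ± 0.14. The transcript of Rpp14a, named for a subunit of ribonuclease P, and CG7950 was higher by 0.61 ± 0.09, and that of the ribosomal RNA methyltransferase Mettl5 and CG42374 by 0.54 ± 0.09. Against these, the transcript of Pbp49, a subunit of the small nuclear RNA activating complex, and CG42516 differed by 0.18 ± 0.10 (SE, limma adjusted p = 0.14).

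Of transcripts with genes of glycosylphosphatidylinositol anchors, the transcript of PIG-P, a subunit of the enzyme for the first step of anchor synthesis, and Tcs6 was higher by 0.51 ± 0.08 (SE). That of PIG-M, a mannosyltransferase of the same pathway, and 3 further genes was higher by 0.53 ± 0.12. Dpm2, a regulatory subunit of the dolichol-phosphate mannose synthase that supplies this pathway, shares a transcript with CG12016 that was higher by 0.64 ± 0.19 (SE, limma adjusted p = 0.0065). The call of the last was lost with arrays centred (0.36, adjusted p = 0.10).

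Metabolic, mitochondrial and repair genes varied. Ppcdc, a decarboxylase of coenzyme A synthesis, shares a transcript with CG42496 that was higher by 0.75 ± 0.09 (SE), and the transcript of Tim10, a chaperone of the mitochondrial intermembrane space, and CG42497 was higher by 0.37 ± 0.07. The transcript of ND-MNLL, a subunit of respiratory complex I, and CG45089 read 10899, 10408 and 11470 in ring gland and 10808, 10616 and 10492 in whole larva. Those groups overlapped and their difference was 0.04 ± 0.08 (SE, limma adjusted p = 0.67). The molybdopterin synthase transcript of Mocs2B and Mocs2A also overlapped, at 0.20 ± 0.11 (SE, limma adjusted p = 0.12). For the transcript of Rad1, part of the checkpoint clamp at damaged DNA, and Sws1 the difference was 0.73 ± 0.24 (SE, limma adjusted p = 0.012), with an adjusted p of 0.056 without ring gland replicate 2.

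Of the rest of the 28, CG44000/CG44001/CG33995 was higher by 1.54 ± 0.17 (SE), CG6191/CG45088 by 0.64 ± 0.14, CG30100/CG42372 by 0.59 ± 0.10, Gint3/CG42306 by 0.55 ± 0.08 and vnc/CG42455 by 0.46 ± 0.07. CG9288/CG42375 (0.17 ± 0.08), CG7071/Muted (0.06 ± 0.09) and CG8026/CG45085 (-0.18 ± 0.14) were not called. The lower transcripts were those of CG17325 and CG42305 (FBtr0081102) and of CG10570 and CG42502 (FBtr0081122). The first read 1025, 850 and 1372 in ring gland and 13659, 13366 and 12412 in whole larva, 12.4-fold lower in ring gland (-3.63 ± 0.24, SE, limma adjusted p = 3.3e-10). The second read 6116, 4876 and 6676 against 18281, 17665 and 19563, 3.17-fold lower (-1.66 ± 0.20, SE, limma adjusted p = 7.8e-07). Neither pair of groups overlapped.

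The difference between the tissues was largely shared with the other ages, which were measured on other arrays. Of the 7670 transcripts called higher at 24 h, 5869 (76.5%) were called higher at 4 h, 6215 (81.0%) at 8 h and 7304 (95.2%) at 36 h. These were 86.6%, 86.2% and 78.0% of the lists at those times, and 40.7%, 43.3% and 56.3% of all transcripts were called higher there. Of the 3860 called lower at 24 h, 2597 (67.3%) were called lower at 4 h, 2854 (73.9%) at 8 h and 3265 (84.6%) at 36 h, where 20.7%, 21.4% and 24.4% of all transcripts were. Those shared lower calls made up 75.3%, 80.1% and 80.3% of the lower lists at 4, 8 and 36 h.

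Some transcripts changed sides. Called higher at 24 h and lower at 4 h were 115 transcripts, and 64 went the other way. Against 8 h these numbers were 85 and 41, and against 36 h they were 11 and 50. In all these cases the test of the change in difference, described next, was also passed in the same direction. Opposite calls from the same arrays and fit nearly ensure that result, so it adds no separate evidence.

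Whether the tissue difference itself changed was tested as the difference at 24 h minus that at each other time. Against 4 h, 2326 transcripts (14%) were called, 1289 with a more positive value at 24 h (7.75%) and 1037 with a more negative one (6.23%). Against 8 h, 1604 (9.64%) were called, 844 more positive (5.07%) and 760 more negative (4.57%). Against 36 h, 1336 (8.03%) were called, 405 more positive (2.43%) and 931 more negative (5.6%). The 3 tests share the 6 arrays at 24 h. Without whole larva replicate 1 at 24 h, the calls were 3230 against 4 h, 1934 against 8 h and 768 against 36 h. The count against 36 h also fell to 836 without whole larva replicate 1 at 36 h. It was 863 without ring gland replicate 1 at 36 h, so it depends on more than 1 array. All 3 splits turned with arrays centred: 1174 were more positive and 1275 more negative against 4 h, 875 and 924 against 8 h, and 624 and 523 against 36 h. The share more positive against 36 h moved most, from 30.3% to 54.4%.

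Among the 16 transcripts of 1 gene, 4 were called against 4 h, 1 more positive and 3 more negative. Against 8 h limma called 0 (4 at an unadjusted p under 0.05), and against 36 h 2, both more positive. Among all transcripts, 7.75% were more positive and 6.23% more negative against 4 h. These shares were 5.07% and 4.57% against 8 h, and 2.43% and 5.6% against 36 h. At an unadjusted p under 0.05 in limma, 3995 of all 16637 transcripts passed against 8 h, in either direction. Without whole larva replicate 1 at 24 h, CG31178 was also called, more negative against 4 h (-3.19, limma adjusted p = 0.0015) and 8 h (-2.58, limma adjusted p = 0.011). Fatp1 was the more positive one against 4 h, by 1.03 ± 0.25 (SE, limma adjusted p = 0.009). Its mean intensity in ring gland was 6869 ± 612 (SD, n = 3) at 4 h and 4394 ± 141 (SD, n = 3) at 24 h, while in whole larva it went from 4171 ± 868 to 1314 ± 268 (SD, n = 3 each). Both tissues were thus lower at 24 h, the larva more so, and the difference was 0.74 at 4 h, 1.29 at 8 h, 1.76 at 24 h and 2.39 at 36 h.

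NaPi-III went the other way, from 0.74 at 4 h to -0.48 at 24 h, a change of -1.22 ± 0.28 (SE, limma adjusted p = 0.0069). In ring gland its mean intensity was 1786 ± 408 (SD, n = 3) at 4 h and 878 ± 79.8 (SD, n = 3) at 24 h, and in whole larva 1053 ± 64.8 and 1227 ± 117 (SD, n = 3 each). The sle difference was smaller at 24 h than at 4 h by 0.81 on the log2 scale (-0.81 ± 0.17, SE, limma adjusted p = 0.0032) and larger than at 36 h (0.75 ± 0.17, SE, limma adjusted p = 0.011). Ring gland levels of sle were 1921 ± 17.9 at 4 h, 1351 ± 97.0 at 24 h and 1171 ± 127 at 36 h, and whole larva levels 505 ± 51.4, 622 ± 64.8 and 907 ± 91.2 (SD, n = 3 each). The tissues were therefore closest for sle at 36 h, with 24 h between.

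For rdx the 24 h value of 0.00 lay between 0.39 at 4 h and -0.47 at 36 h. It differed from the first by -0.39 ± 0.12 (SE, limma adjusted p = 0.039) and from the second by 0.48 ± 0.12 (SE, limma adjusted p = 0.024). The first call was lost when any of 7 of 12 arrays was left out and the second with any of 5 of 12.

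**Figure D5:**
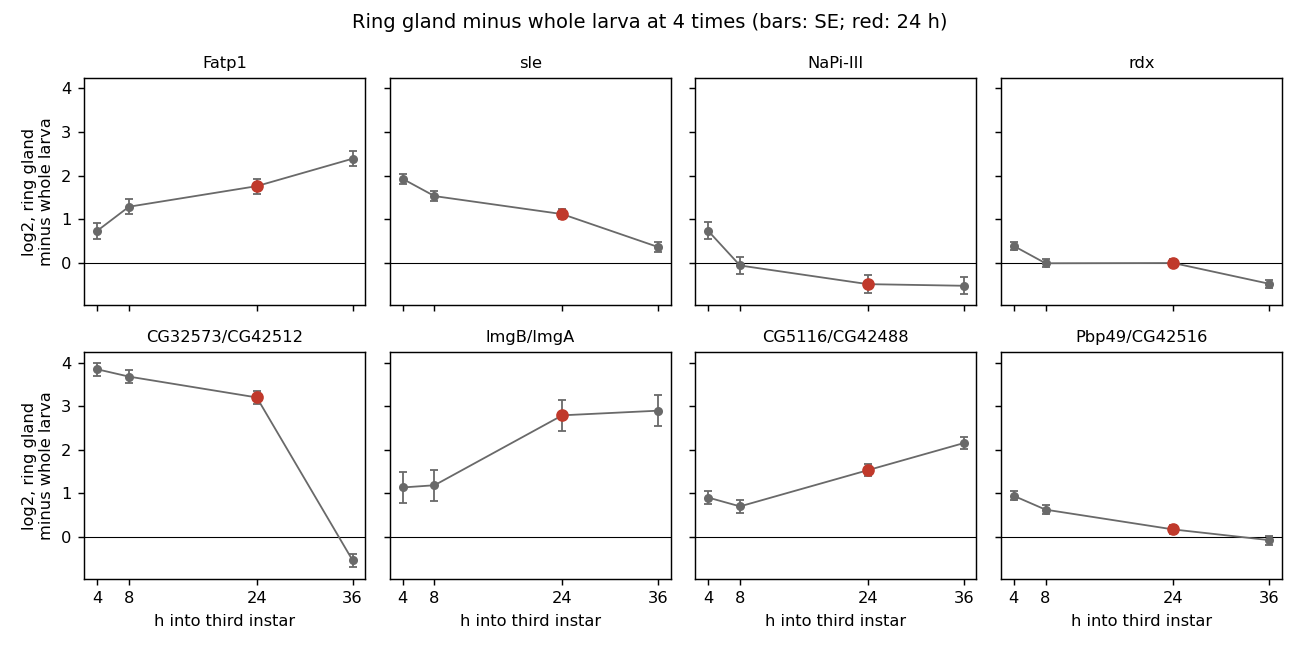
Difference between ring gland and whole larva (log2 intensity, y axis) at 4, 8, 24 and 36 h into the third instar (x axis) for 8 named transcripts, with bars of 1 SE and the 24 h value in red. CG32573/CG42512 is 3.20 at 24 h and -0.53 at 36 h, while Fatp1 and CG5116/CG42488 are highest at 36 h.

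Of the 28 transcripts of several genes, 4 were called more positive and 2 more negative against 4 h, 4 and 0 against 8 h (10 and 2 at an unadjusted p under 0.05 in limma), and 1 and 2 against 36 h. The shares of all transcripts called were 7.75% and 6.23%, 5.07% and 4.57%, and 2.43% and 5.6%. Without adjustment, 3995 of all 16637 transcripts had a limma p under 0.05 against 8 h, in either direction. The calls of CG5116/CG42488 and CG32573/CG42512 against 4 h were lost when any of 10 and any of 8 of 12 arrays was left out. The largest change was that of CG32573/CG42512, whose difference was 3.20 at 24 h and -0.53 at 36 h (3.73 ± 0.21, SE, limma adjusted p = 8.5e-09). Its ring gland intensity was nearly constant, at 849 ± 23.9 and 873 ± 111, and its whole larva intensity was 93.2 ± 14.7 at 24 h and 1257 ± 22.6 at 36 h (SD, n = 3 each). The ring gland thus exceeded the larva at 24 h and lay slightly below it at 36 h. This result was 3.59 to 3.82 when any of the 12 arrays was left out.

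The lmgB/lmgA difference was 1.14 at 4 h and 2.79 at 24 h (1.65 ± 0.50, SE, limma adjusted p = 0.035), a call lost when any of 8 of 12 arrays was left out. Whole larva intensity for lmgB/lmgA was 181 ± 38.4 at 4 h and 71.6 ± 6.64 at 24 h, and ring gland intensity 394 ± 43.2 and 496 ± 51.8 (SD, n = 3 each). CG5116/CG42488 was more positive at 24 h than at 8 h by 0.83 ± 0.20 (SE, limma adjusted p = 0.013), and CG7950/Rpp14a by 0.51 ± 0.12 (SE, limma adjusted p = 0.011). For Pbp49/CG42516 the difference went from 0.95 at 4 h to 0.18 at 24 h (-0.77 ± 0.15, SE, limma adjusted p = 0.0018). In that transcript the ring gland went from 5670 ± 470 to 4065 ± 315 and the whole larva from 2946 ± 341 to 3594 ± 166 (SD, n = 3 each), so the gland mean was lower and the larval mean higher at the later time.

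Apart from CG32573/CG42512, the 2 largest changes each way against each time belonged to transcripts without a name, and in most of them the level of a single tissue differed widely between the times. FBtr0087746 had mean intensities of 555 ± 110 at 4 h, 808 ± 250 at 8 h and 12264 ± 864 at 24 h in ring gland, and 2289 ± 1002, 1091 ± 1278 and 854 ± 473 in whole larva (SD, n = 3 each). Its difference went from -1.98 at 4 h to 3.98 at 24 h (5.96 ± 0.79, SE, limma adjusted p = 5e-05), and at 36 h it was 3.78. Relative to the larva the gland was thus 3.94-fold lower at 4 h and 15.8-fold higher at 24 h, and its own mean was high at 24 h alone of these 3 times.

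For FBtr0100678 the larval intensity differed between the times instead. It read 38.5, 50.1 and 39.9 in ring gland and 49.7, 32.2 and 29.9 in whole larva at 24 h, a difference of 0.23 ± 0.50 (SE, limma adjusted p = 0.70). Whole larva intensity for FBtr0100678 had been 3762 ± 2229 at 4 h and 3385 ± 1678 at 8 h (SD, n = 3 each). The change of difference was 5.77 ± 0.71 against 4 h, or 6.46 without whole larva replicate 1 at 4 h, and 6.14 ± 0.71 against 8 h (SE, limma adjusted p = 2.3e-05 and 2.4e-05).

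On the negative side against 4 h, the 2 largest changes belonged to transcripts with far lower gland intensities at 24 h. FBtr0084845 read 49.1, 217 and 53.7 in ring gland at 24 h, against a mean of 4524 ± 1693 (SD, n = 3) at 4 h, and 18344, 18508 and 17874 in whole larva at 24 h. FBtr0076042 read 20.9, 93.4 and 21.7 in ring gland at 24 h, against 1590 ± 626 (SD, n = 3) at 4 h, and 10414, 9760 and 10180 in whole larva. Ring gland replicate 2 was the highest gland array for both. The changes were -6.13 ± 0.70 and -5.79 ± 0.64 (SE, limma adjusted p = 9.4e-06 and 7.7e-06), and -6.82 and -6.50 without that array. Both had still lower gland intensities at 8 h, with gland means of 25.4 and 19.3.

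Against 8 h, FBtr0273411 crossed from above to below the larva. Its ring gland mean was 5260 ± 289 at 8 h and 516 ± 261 at 24 h, and its whole larva mean 674 ± 131 and 1742 ± 163 (SD, n = 3 each), so the gland mean was the lower, and the larval mean the higher, at 24 h. The difference went from 2.98 to -1.86 (-4.84 ± 0.41, SE, limma adjusted p = 7.8e-07). FBtr0083935 instead stayed dim in ring gland, at 28.9 ± 4.79 and 25.5 ± 3.91, and in whole larva went from 31.2 ± 3.01 to 760 ± 180 and to 3024 ± 99.04 at 36 h (SD, n = 3 each). Its change of -4.76 ± 0.30 against 8 h (SE, limma adjusted p = 1.2e-08) went with the higher larval intensity. FBtr0074445 read 2639, 20635 and 1626 in ring gland at 24 h, with replicate 2 far above the others. Its change against 8 h was 5.19 ± 1.53 (SE, limma adjusted p = 0.038), and this call was lost when any of 9 of 12 arrays was left out. Without ring gland replicate 2 at 24 h the change was 4.09, with an adjusted p of 0.10.

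Against 36 h the widest differences between the times lay in the larva. FBtr0080591 read 27.6, 30.4 and 30.5 in ring gland and 31.8, 24.6 and 24.6 in whole larva at 24 h, with no difference called, and its whole larva mean at 36 h was 1010 ± 340 (SD, n = 3). The change was 4.02 ± 0.41 (SE, limma adjusted p = 1.2e-05). FBtr0079500 and FBtr0082143 had whole larva means of 4163 ± 1116 and 4323 ± 292 at 24 h, and of 110 ± 4.04 and 106 ± 38.5 at 36 h (SD, n = 3 each). Their ring gland means were 89.9 ± 36.0 and 50.8 ± 20.5 at 24 h and 76.5 ± 27.9 and 31.0 ± 6.18 at 36 h. The tissues thus stood closer together at 36 h, where the larval means were low. At 36 h the difference of FBtr0079500 was not called (-0.58 ± 0.72, SE, limma adjusted p = 0.46). That of FBtr0082143 was still called lower in ring gland (-1.72 ± 0.40, SE, limma adjusted p = 0.00069). The changes were -4.99 ± 1.02 and -4.77 ± 0.56 (SE, limma adjusted p = 0.0059 and 5.9e-05).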

How the data were processed

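Total RNA (TRIzol and RNeasy, per the labels' protocols) was hybridised to NimbleGen 12x135K arrays with Cy3. The deposited intensity values, linear in scale, came from RMA (no version stated), per the submitters' processing notes. Not given in the sources used here are the genome build, probe annotation, background correction and the slide of each array. All 16637 transcripts had a value on every array, and 0 columns were identical.

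Values were taken to log2 with no pseudocount and no filter. The 24 wild-type arrays were fitted as 8 groups with limma 3.58.1 in R 4.3.3 (lmFit, eBayes), with Benjamini-Hochberg adjustment within each contrast. Calling was tested on simulated data with known changes. Errors of log2 differences are limma standard errors, and the 3 arrays per group limit the precision. The members and lists were chosen with earlier results of these data known. Named are all transcripts of 1 gene, plus the 2 largest rises and falls at 24 h (adjusted p under 0.05, tissues without overlap) and the 2 largest changes each way in each of 3 tests between times; the 28 transcripts of several genes were added after the values were seen. Symbols came from a RefSeq gene table (assembly Release 6 plus ISO1 MT). No sequences or coordinates were used here. The 18 driver-cross arrays, taken as normalized separately, were left out.

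The alternatives tried were a second quantile normalization, centring of arrays, removal of dim transcripts, robust moderation with a trend, weights per array, the replicate number as a block, a 2-fold minimum, limma's treat with a 1.5-fold minimum, the compared groups alone, and each array left out in turn. Added after seeing the data were the removal of whole larva replicate 1 at both 24 and 36 h, and the averaging of whole larva replicates 2 and 3 at 36 h.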

Additional observations from a re-analysis of the deposited data

Results flagged for a closer look

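The results given here are changes of the difference between ring gland and whole larva at 24 h relative to another time that passed the limma test of that change, among the named transcripts. All values are log2, 24 h minus the other time, and for each transcript the time of its largest change is given.

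Against 4 h, the values were 1.03 for Fatp1, -0.81 for sle, -1.22 for NaPi-III, 1.65 for lmgB/lmgA, 0.91 for CG12016/Dpm2, -0.77 for Pbp49/CG42516, 5.96 for FBtr0087746, -6.13 for FBtr0084845, -5.79 for FBtr0076042 and -4.78 for FBtr0083935. The call of CG12016/Dpm2 was lost when any of 5 of 12 arrays was left out. Against 8 h, they were 1.10 for CG10570/CG42502, 0.83 for CG5116/CG42488, 0.51 for CG7950/Rpp14a, 6.14 for FBtr0100678, 5.19 for FBtr0074445 and -4.84 for FBtr0273411. The FBtr0074445 call was lost when any of 9 of 12 arrays was left out, and the CG10570/CG42502 call was lost without ring gland replicate 3 at 24 h, ring gland replicate 2 at 8 h or whole larva replicate 3 at 8 h.

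Against 36 h, the values were 3.73 for CG32573/CG42512, 0.48 for rdx, -0.72 for PIG-M/CG42379/CG42380/CG42381, -0.43 for Ppcdc/CG42496, -0.62 for FBtr0075443, 4.02 for FBtr0080591, -4.99 for FBtr0079500 and -4.77 for FBtr0082143. The calls of Ppcdc/CG42496 and FBtr0075443 were lost when any of 11 and any of 10 of 12 arrays was left out, and with arrays centred (-0.27 and -0.46).

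Whole larva replicates 2 and 3 at 36 h were closer than any other replicate pair, with a median absolute log2 difference of 0.081, against 0.154 to 0.288 for the 23 other pairs. With no counts, whether they differ beyond measurement noise was not tested. Averaged into 1 sample, the change against 36 h was called for 1416 transcripts, in place of 1336.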

How the results depend on the processing

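The 24 h calls were 10604 to 11440 (7094 to 7566 higher, 3503 to 3874 lower) with 1 array left out, 6056 at a 2-fold minimum (3095 higher) and 5896 with treat (3365 higher, 2531 lower), against 11530. With array weights there were 4154 calls against 4 h (1991 more positive, 2163 more negative) and 2505 against 8 h (1313 more negative). At a 2-fold minimum they were 1200 (601 and 599), 764 (381 and 383) and 754 (449 more negative) against 4, 8 and 36 h, and with treat 359 (192 and 167), 191 (99 and 92) and 107 (24 and 83). Without whole larva replicate 1 at 24 and 36 h they were 4068 (2213 more negative), 2974 (1730 more negative) and 681 (400 more negative). Against 36 h, the compared groups alone gave 586 (142 and 444), centred arrays 624 and 523, and the filter on dim transcripts 216 more positive. With 1 array left out, the calls ranged from 1794 to 3230 against 4 h (1002 to 1584 more positive, 785 to 1646 more negative), from 1116 to 1934 against 8 h (568 to 935, 548 to 999) and from 768 to 1480 against 36 h (227 to 527, 535 to 1010). The array behind the 1646 was whole larva replicate 1 at 24 h. Against 36 h, the calls were 768 without that array, 863 without ring gland replicate 1 at 36 h and 836 without whole larva replicate 1 at 36 h, and those more positive were 261 and 265 without ring gland replicates 1 and 2 at 24 h.

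Of the 16 transcripts of 1 gene, 4 were higher and 1 lower at a 2-fold minimum and with treat, 5 were lower with arrays centred, and 10 to 11 were higher and 2 to 3 lower with 1 array left out. Of the 28 of several genes, 6 were higher at a 2-fold minimum, 7 with treat and 19 to 20 with 1 array left out, and lower were 5 with arrays centred and 2 with any 1 array left out. With arrays centred the sign turned for ND-MNLL/CG45089 (-0.25), CG9288/CG42375 (-0.11), His4r (-0.050), CG7071/Muted (-0.23), Mocs2B/Mocs2A (-0.078), Pbp49/CG42516 (-0.11) and rdx (-0.28). For rdx, at 0.00, it also turned with quantile normalization (-0.053), array weights (-0.034), whole larva replicate 1 at 24 and 36 h left out (-0.037) and 4 single arrays left out, with a range of -0.037 to 0.061, and CG7071/Muted ranged from -0.0022 to 0.11. The causes were not tested beyond these alternatives' own construction.

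The main fit did not pair arrays by replicate number. Deviations of same-numbered arrays at 24 h correlated at only 0.06, 0.09 and 0.08, although each gland array correlated best with its own number. With 3 arrays per group, these values cannot decide whether the numbers mark pairs. With the replicate block there were 7446 higher and 3859 lower calls at 24 h, and 838 (543 more negative) against 36 h. NaPi-III had an adjusted p of 0.096 in the limma fit with that block.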
